A study of Homo sapiens and Mus musculus with 27 samples.

Results

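The response of 4T1 cells to caMKL1 was set against the response of LM2 cells to the same factor, gene by gene. The quantity tested was an interaction, the caMKL1 against control log2 ratio in 4T1 minus the same log2 ratio in LM2, so a positive value means a higher ratio in 4T1. It uses 12 of the 27 libraries of the series, 3 each of 4T1 caMKL1, 4T1 control, LM2 caMKL1 and LM2 control. 4T1 is a mouse mammary carcinoma line that spreads from the mammary gland, and LM2 is a lung-metastatic subline of the human breast cancer line MDA-MB-231. The labels give caMKL1 overexpression as treatment for all caMKL1 libraries, while the genotype entry is caMKL1 for replicate 1, caMKL2 for replicate 2 and caMKL3 for replicate 3. Neither the construct's sequence nor its species is given in the labels, and species, line and construct cannot be told apart in a difference between the lines. Mouse and human genes were paired by symbol, ignoring case, which gave 16749 shared symbols and 10236 genes that passed the filter on low counts in both lines. A shared symbol is not by itself evidence of orthology.

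MKL1, also named MRTFA, is a coactivator that monomeric actin holds in the cytoplasm. When actin polymerises, MRTFA and its relative MRTFB enter the nucleus and bind serum response factor, SRF, on CArG boxes, short A/T-rich elements that begin with CC and end with GG. The cytoskeletal targets of this pair include smooth muscle actin, transgelin and calponin. SRF also serves immediate early genes such as EGR1 through a different class of partners, the ternary complex factors, which are switched on by MAP kinase signalling from growth factor receptors.

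Replicates were close in 4T1 and less so in LM2. Totals ran from 24035537 to 28937918 counts in 4T1 caMKL1 libraries, 24651270 to 29370432 in 4T1 control, 24917655 to 28634692 in LM2 caMKL1 and 22147429 to 23723362 in LM2 control. The chi-square per gene between replicates was 2.56 to 4.46 in 4T1. LM2 caMKL1 replicate 1 differed from replicates 2 and 3 by 76.0 and 82.8, where those 2 differed by 3.89, and its share of mitochondrial counts was 7.76% against 13.4% and 13.6%. LM2 control replicate 3 differed from its fellows by 10.5 and 11.4, which differed by 2.77. Without LM2 caMKL1 replicate 1, the counts of opposite genes in the lists described below moved by at most 1 in each direction, except for the mitochondrially encoded genes. Those up in 4T1 and down in LM2 then numbered 1 in place of 0 in the TGF-beta, NF-kB, G1 and DNA replication lists, and 2 in place of 1 in the immediate early and focal adhesion lists. Because total RNA per cell was not measured, levels are shares of a library. Fewer cells in a state and less RNA per cell cannot be told apart. Summed over 10 leukocyte marker genes, 4T1 caMKL1 libraries held 58.4 to 66.6 CPM, led by Cd68, against 13.5 to 14.2 CPM in 4T1 control. The LM2 sums over 9 such genes were 2.47 to 5.41 CPM with caMKL1 and 1.17 to 1.85 CPM in control. CD14, the leukocyte marker that passed the filter in both lines, went against that sum in 4T1, with log2 ratios of -1.36 in 4T1 and 2.28 in LM2. Sums over 10 fibroblast markers were 33.1 to 33.8 CPM with caMKL1 and 32.6 to 35.0 CPM in control in 4T1, and 20.7 to 20.9 CPM with caMKL1 and 10.8 to 13.8 CPM in control in LM2. Over 9 endothelial markers they were 9.86 to 10.7 CPM with caMKL1 and 7.44 to 8.48 CPM in control in 4T1, and 4.66 to 6.12 CPM with caMKL1 and 11 to 13.3 CPM in control in LM2. Within a group, 1 to 3 genes of each list had 0 counts, and the part of such cells in the results was not tested.

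The factor itself was raised in both lines. MRTFA was at 593, 595 and 675 CPM (counts relative to the TMM-scaled library size) in 4T1 caMKL1 libraries, against 41.2, 36.6 and 38.7 CPM in 4T1 control. Its level in LM2 was 172, 250 and 217 CPM with caMKL1, against 10.2, 9.86 and 11.1 CPM in control. These are rises of 4.00 ± 0.11 and 4.35 ± 0.12 on the log2 scale (± SE, n = 3 libraries a group), and their difference, -0.35 ± 0.16, did not pass edgeR's quasi-likelihood test (adjusted p = 0.0547). SRF rose by 1.95 ± 0.08 in 4T1 and 2.19 ± 0.08 in LM2, with a difference of -0.24 ± 0.11 (edgeR adjusted p = 0.0560). With library totals in place of TMM scaling the differences were -0.11 and -0.01. That of MRTFA passed at -0.52 without LM2 caMKL1 replicate 1, at -0.42 without 4T1 caMKL1 replicate 3 and at -0.40 without 4T1 control replicate 2. That of SRF passed at -0.29 and -0.32 without LM2 caMKL1 replicate 2 or 3, and at -0.30 without 4T1 control replicate 2.

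The other markers separated the lines. MRTFB, the second MRTF, was at 82.7, 83.3 and 84.4 CPM with caMKL1 and 78.9, 74.8 and 79.2 CPM in control in 4T1, a log2 ratio of 0.11 ± 0.05 that did not pass (edgeR adjusted p = 0.0746). In LM2 it fell to 20.6, 18.8 and 20.3 CPM with caMKL1, against 67.6, 67.2 and 69.0 CPM in control. The interaction was 1.87 ± 0.08 (edgeR adjusted p = 5.53e-12). CNN1, calponin of smooth muscle, rose in both lines, to 787, 793 and 795 CPM in 4T1 caMKL1 libraries against 0.151, 0.159 and 0.187 CPM in 4T1 control. In LM2 it rose to 5.37, 4.52 and 3.87 CPM with caMKL1, against 0.819, 0.621 and 1.09 CPM in control. TAGLN, transgelin, had the larger rise in LM2, at 1387, 1028 and 1048 CPM with caMKL1 against 3.59, 3.69 and 2.87 CPM in control. In 4T1 it was at 11.7, 10.3 and 11.4 CPM with caMKL1, against 0.189, 0.572 and 0.374 CPM in control. The interaction was 9.73 ± 0.36 for CNN1 and -3.60 ± 0.53 for TAGLN (edgeR adjusted p = 2.13e-12 and 1.56e-05).

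Most genes answered the factor to a different extent, and many of those that moved in both lines moved in opposite directions. The interaction passed at an adjusted p under 0.05 for 7592 of 10236 genes (74.2%), of which 4323 (42.2% of the tested genes) were higher and 3269 (31.9%) lower in 4T1 relative to LM2. With library totals in place of TMM scaling the split was 5321 and 2396, since that scaling moved the median interaction of all genes to 0.39 log2, against 0.15 with TMM. In 4T1, 3840 genes (37.5%) rose and 3631 (35.5%) fell, and in LM2 3670 (35.9%) rose and 4524 (44.2%) fell. Among 6115 genes called in both lines, 63.4% had the same sign and 36.6% the opposite sign. Across the 10236 genes the log2 ratios of the lines had a Pearson r of 0.354 and a Spearman rho of 0.257, which describes genes that share libraries and are not independent.

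Opposite responses, with all 3 tests passed and opposite signs, were found in 1268 genes (12.4%) that rose in 4T1 and fell in LM2 and in 971 (9.49%) that fell in 4T1 and rose in LM2. Their median log2 ratios were 0.52 in 4T1 and -0.64 in LM2 for the first class, and -0.54 and 0.73 for the second. At least 2-fold in both lines were 106 genes (1.04%) of the first class and 120 (1.17%) of the second. In 105 and 118 of these the caMKL1 and control libraries did not overlap in either line. The choice by test and 2-fold size makes that nearly certain, so it adds no support. Of the 226, 219 kept their class under every one of 22 other settings that gave them a value, the exceptions being ARMH1, ASPN, FAM43A, KCNV2, MUC4, RND1 and TMTC1. At the 2-fold boundary lay B4GALT2, inside at -1.01 in LM2, and TSC22D1, outside at 0.997 in 4T1. Without LM2 caMKL1 replicate 1 the classes held 1417 and 1136 genes, and 112 and 120 at 2-fold. With library totals, 1364 of all 2239 opposite genes and 224 of the 226 kept their class.

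**Figure D1:**
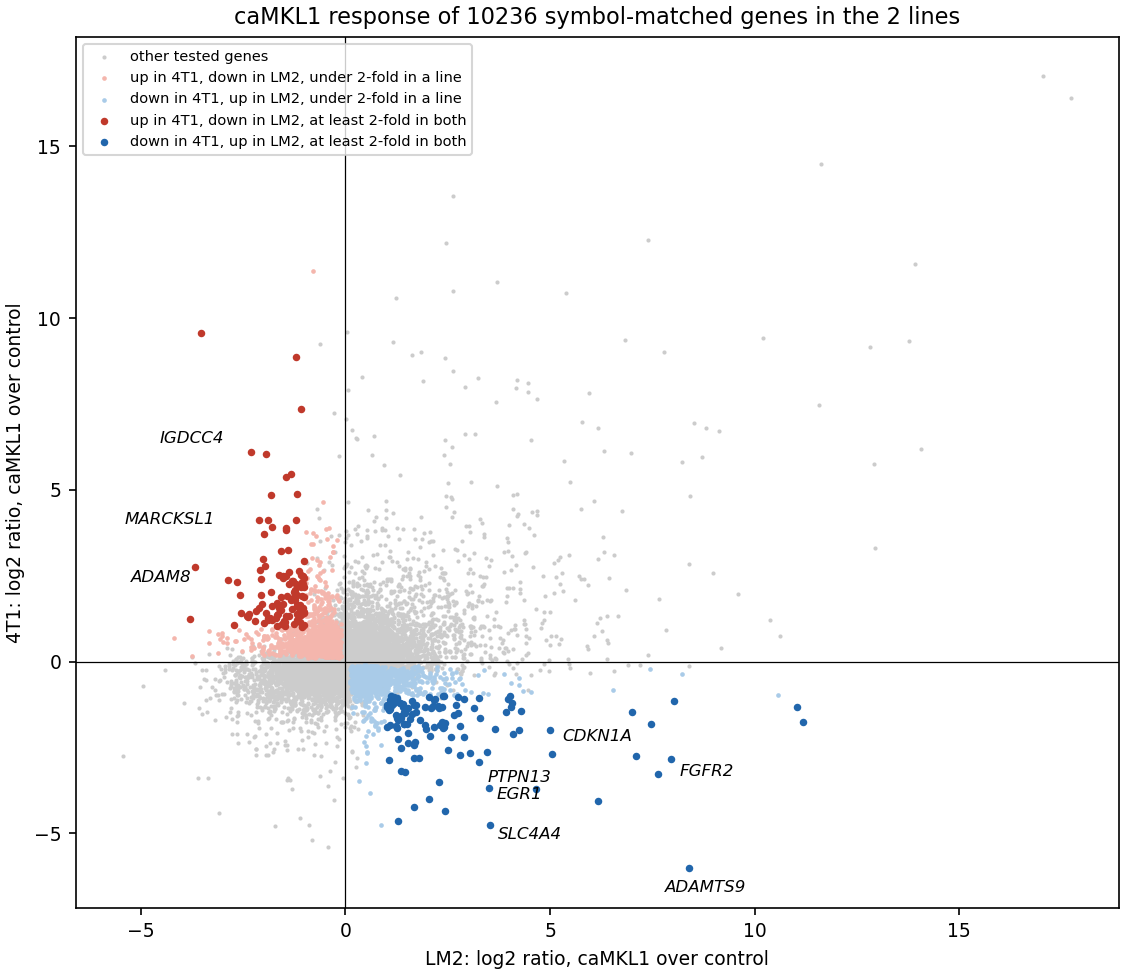
Each point is 1 of 10236 genes, with its log2 ratio of caMKL1 over control in LM2 on the x axis and in 4T1 on the y axis. Red (up in 4T1, down in LM2) and blue (down in 4T1, up in LM2) mark opposite responses, dark where both were at least 2-fold. Labelled genes include ADAMTS9 at -6.02 in 4T1 and 8.40 in LM2, and IGDCC4 at 6.05 and -1.93.

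EGR1, a zinc finger transcription factor of the immediate early class, was the marker with opposite responses. It was at 12.9 CPM in every 4T1 caMKL1 library, against 154, 146 and 202 CPM in 4T1 control. LM2 cells had 264, 265 and 282 CPM with caMKL1, against 17.9, 24.3 and 29.3 CPM in control. The caMKL1 libraries were thus the lowest in 4T1 and the highest in LM2, with no overlap in either line. EGR1 fell by 3.69 ± 0.15 log2 in 4T1 and rose by 3.50 ± 0.14 in LM2, with an interaction of -7.19 ± 0.21 (edgeR adjusted p = 1.31e-13). In cells overexpressing MKL1, scaled with all 9 libraries of a line and sharing these controls, EGR1 was at 113.6, 113.5 and 134.4 CPM in 4T1 and 20.1, 14.9 and 12.4 CPM in LM2. Human EGR1 lies on chromosome 5 at 138465479 to 138469303 (GRCh38, plus strand).

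Promoter sequences were read to show which of the opposite genes carry the element that SRF binds. RefSeq windows of 250 bases before to 50 after a start (GRCh38.p14) were at hand for 8420 of the 10236 genes by human symbol, and mouse promoters were not analysed here. A CArG box (CC, 6 bases of A or T, GG, which reads as the same pattern on both strands) was in 1.29% of all 35116 windows. Among genes with opposite responses of at least 2-fold, it was in 0 of 146 windows of those up in 4T1 and in 6 of 161 windows of those down in 4T1, those of CCNB1IP1, CPD, CXCL11, EGR1, RTN2 and TCF7. Windows were found for 86 of 106 genes of the first class and for 91 of 120 of the second, under 80%, so the share for the second class is void as a check. Genes higher in both lines by at least 2-fold had the box in 37 of 609 windows (6.08%), found for 360 of 452 genes and so void too. The cytoskeletal targets of MRTF and SRF had it in 12 of 61 windows (19.7%), found for 29 of 33 genes. That list holds known targets, which may be known by such boxes, so its share is no check either. The human sequences below are those of EGR1, of TCF7 and CPD, which moved the same way as EGR1, and of FHL1. FHL1 is among 3 listed SRF targets that moved the other way, and its fall in LM2 was under 2-fold. Each is the 250 bases before a RefSeq start, on the plus strand, with CArG boxes in capitals. The window printed is the first of the gene that holds a box, and other starts of the gene may lack it.
EGR1 (chr5:138465229-138465478): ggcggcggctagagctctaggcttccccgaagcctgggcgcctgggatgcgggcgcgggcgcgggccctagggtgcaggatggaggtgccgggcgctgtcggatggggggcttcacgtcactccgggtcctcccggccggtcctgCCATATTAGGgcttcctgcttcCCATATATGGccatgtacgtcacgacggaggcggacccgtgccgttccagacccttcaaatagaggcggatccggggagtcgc
TCF7 (chr5:134115363-134115612): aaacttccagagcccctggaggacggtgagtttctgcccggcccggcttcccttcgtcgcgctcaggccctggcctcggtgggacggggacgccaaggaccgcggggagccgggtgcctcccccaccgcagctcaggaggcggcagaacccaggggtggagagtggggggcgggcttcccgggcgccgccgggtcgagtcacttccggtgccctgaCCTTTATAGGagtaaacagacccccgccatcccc
CPD (chr17:30380228-30380477): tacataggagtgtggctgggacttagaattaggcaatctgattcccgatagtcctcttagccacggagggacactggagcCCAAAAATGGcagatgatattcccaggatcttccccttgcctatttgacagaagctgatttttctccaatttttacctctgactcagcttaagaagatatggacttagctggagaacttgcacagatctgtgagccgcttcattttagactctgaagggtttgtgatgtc
FHL1 (chrX:136196797-136197046): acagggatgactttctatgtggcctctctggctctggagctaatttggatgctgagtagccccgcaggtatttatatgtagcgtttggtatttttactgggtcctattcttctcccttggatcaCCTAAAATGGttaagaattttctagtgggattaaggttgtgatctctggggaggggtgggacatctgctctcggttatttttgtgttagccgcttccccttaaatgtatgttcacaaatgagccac
The first bases of the boxes lie 105 and 83 bases before the start so chosen in EGR1, 34 in TCF7, 170 in CPD and 126 in FHL1. A match describes letters and not a bound site. TCF7, a Wnt pathway transcription factor, fell by 1.70 log2 in 4T1 and rose by 1.29 in LM2. CPD, carboxypeptidase D, was at 128, 132 and 132 CPM in 4T1 caMKL1 libraries against 256, 264 and 267 CPM in 4T1 control, just past 2-fold. In LM2 it rose to 1487, 1440 and 1355 CPM with caMKL1, against 269, 262 and 281 CPM in control.

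EGR1 stood in a wider split of early response genes. Of 24 immediate early genes tested, 16 had a lower and 4 a higher response in 4T1, and 5 fell in 4T1 while rising in LM2, with 1 the other way. Over all tested genes 31.9% were lower, 42.2% higher, 9.49% opposite in the first way and 12.4% in the second. The median log2 ratio of the list was 0.31 in 4T1 and 1.35 in LM2, where over all tested genes it was 0.01 and -0.10. EGR3, a relative of EGR1, was at 2.17, 2.17 and 2.84 CPM in 4T1 caMKL1 libraries against 5.19, 4.99 and 5.80 CPM in 4T1 control, and at 37.6, 39.5 and 42.9 CPM in LM2 caMKL1 libraries against 0.156, 0.0731 and 0.218 CPM in LM2 control. JUNB, an AP-1 subunit, fell by 0.65 log2 in 4T1 and rose by 2.52 in LM2. IER2 fell by 0.84 and rose by 1.23, and MCL1, an anti-apoptotic BCL2 relative, fell by 0.34 and rose by 0.70. JUN, another AP-1 subunit, went the opposite way, at 204, 209 and 221 CPM in 4T1 caMKL1 libraries against 65.4, 62.1 and 48.9 CPM in 4T1 control. In LM2 the values were 34.4, 38.3 and 40.0 CPM with caMKL1, against 50.4, 46.3 and 63.2 CPM in control. FOS and EGR2 rose in both lines but far less in 4T1, by 0.37 and 0.55 log2 against 5.92 and 6.41 in LM2. The LM2 size for EGR2 is uncertain, as the control libraries held 15 counts in all.

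Several genes that damp MAP kinase signalling moved in the same directions as EGR1. Of 17 such feedback genes tested, 7 fell in 4T1 and rose in LM2 and 1 did the reverse, against 9.49% and 12.4% of all tested genes. The list's median log2 ratio was -0.50 in 4T1 and 0.55 in LM2, and the interaction passed as lower in 12 and higher in 3. The 7 were SPRED1, SPRED2 and SPRED3, which hold back RAF activation, SPRY4, a Sprouty inhibitor of receptor signalling, ERRFI1, an inhibitor of the EGF receptor kinase, and the dual-specificity phosphatases DUSP14 and DUSP16. SPRED3 was at 21.7, 22.6 and 21.2 CPM in 4T1 caMKL1 libraries against 46.8, 43.3 and 41.6 CPM in 4T1 control. The LM2 libraries held 34.1, 35.4 and 34.3 CPM with caMKL1, against 14.1, 16.2 and 17.8 CPM in control. SPRED1 had the smallest LM2 response of the 7, 0.18 log2, beside -1.49 in 4T1. DUSP4, a nuclear phosphatase of ERK, rose by 0.32 in 4T1 and fell by 2.52 in LM2. DUSP6, the cytoplasmic ERK phosphatase, fell by 2.20 in 4T1, while its LM2 ratio of -0.22 ± 0.14 did not pass (edgeR adjusted p = 0.176). With library totals the list kept 2 genes down in 4T1 and up in LM2 and 0 the other way, with medians of -0.69 in 4T1 and 0.12 in LM2.

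Ligands and receptors upstream of that pathway were among the opposite genes too. Of 10 genes of the EGF receptor family and its ligands tested, 5 had a lower and 1 a higher response in 4T1. Over all tested genes 31.9% were lower and 42.2% higher. Of the 10, 3 fell in 4T1 and rose in LM2 and 1 did the reverse, against 9.49% and 12.4% of all tested genes. HBEGF, heparin-binding EGF-like growth factor, was at 29.9, 30.0 and 31.5 CPM in 4T1 caMKL1 libraries against 85.9, 81.8 and 90.4 CPM in 4T1 control. In LM2 it was at 169, 160 and 164 CPM with caMKL1, against 65.3, 62.1 and 52.3 CPM in control. TGFA, a second ligand of the same receptor, fell by 1.30 ± 0.06 log2 in 4T1 and rose by 1.08 ± 0.07 in LM2. The receptor itself, EGFR, moved against its ligands: 28.0, 27.2 and 28.8 CPM in 4T1 caMKL1 libraries against 13.1, 14.7 and 14.4 CPM in 4T1 control. In LM2 EGFR was at 190, 193 and 185 CPM with caMKL1, against 599, 573 and 575 CPM in control. ERBB3, a family member with weak kinase activity, fell by 1.18 in 4T1 and rose by 0.51 in LM2, or by 0.08 with library totals, where its opposite call was lost. EGF was at 107, 111 and 118 CPM in LM2 caMKL1 libraries against 12.8, 15.7 and 16.7 CPM in LM2 control, while its 4T1 ratio of 0.09 ± 0.19 did not pass (edgeR adjusted p = 0.676). FGFR2, a fibroblast growth factor receptor, fell in 4T1 and rose in LM2. It was at 22.2, 22.3 and 22.1 CPM in 4T1 caMKL1 libraries against 156, 154 and 164 CPM in 4T1 control, and at 18.9, 19.9 and 20.7 CPM in LM2 caMKL1 libraries against 0.117, 0.0365 and 0.0726 CPM in LM2 control. CPM were scaled within each line on its own annotation, so levels are read within a line and not between lines. The interaction was -10.79 ± 0.16 (edgeR adjusted p = 1.58e-16). Its size is uncertain, as the LM2 control libraries held 6 counts in all.

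**Figure D2:**
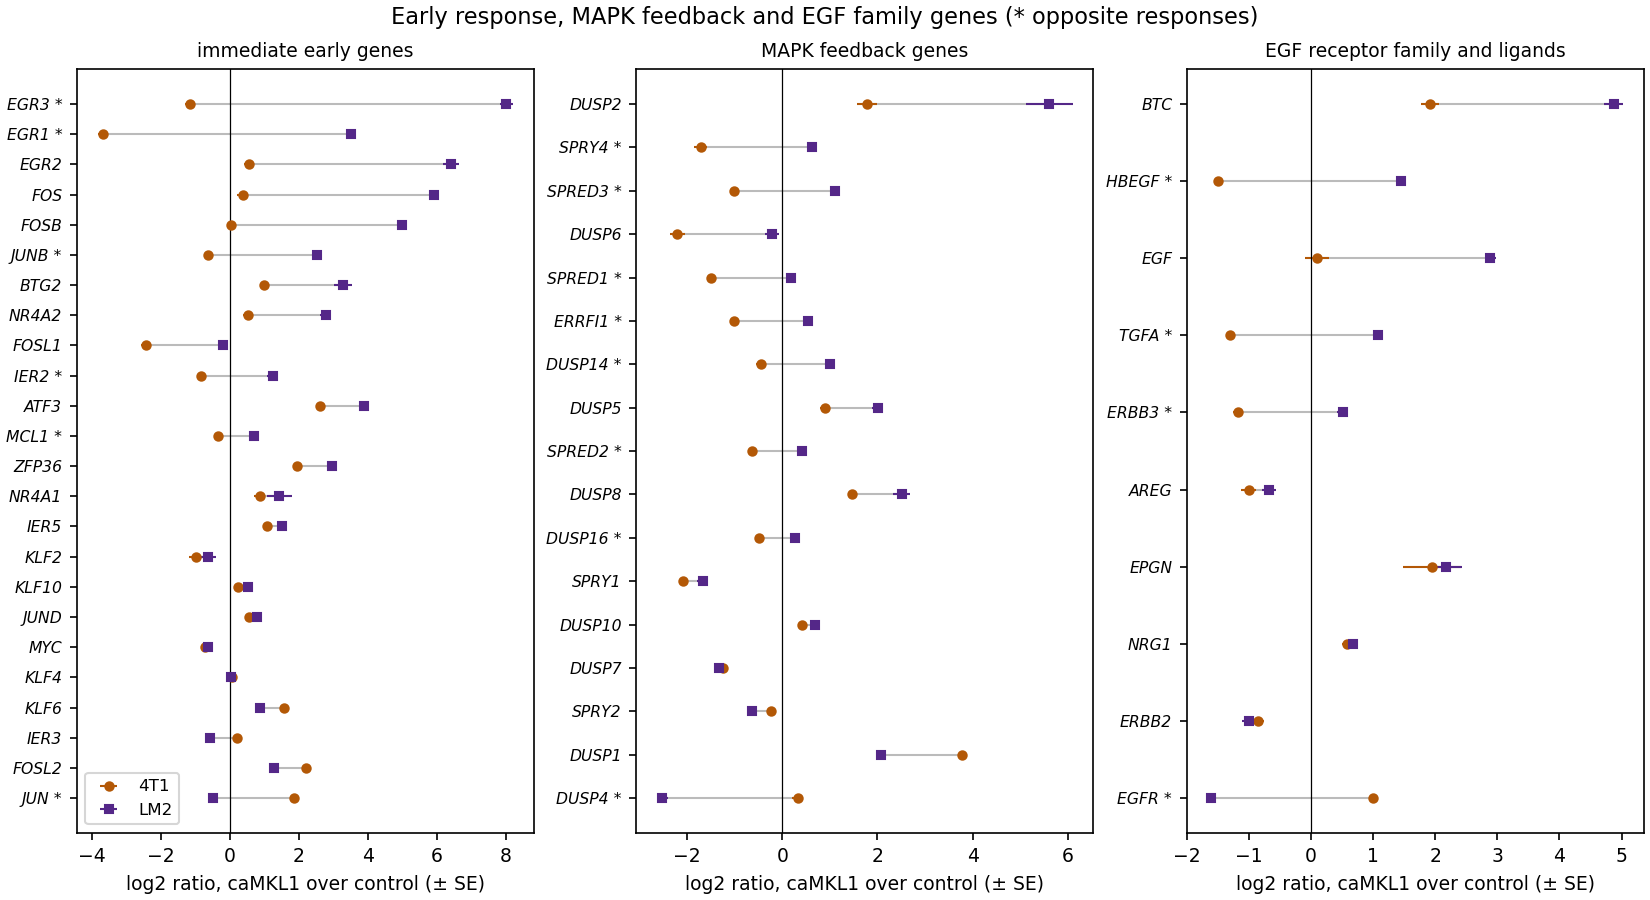
Log2 ratio of caMKL1 over control (± SE, n = 3 libraries a group) in 4T1 (orange circles) and LM2 (purple squares) for the tested members of 3 lists, with an asterisk at genes of opposite response. EGR1 is at -3.69 in 4T1 and 3.50 in LM2 and HBEGF at -1.50 and 1.45, while JUN, DUSP4 and EGFR have the 4T1 value on the right.

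CDKN1A, the p21 inhibitor of cyclin-dependent kinases, fell in 4T1 and rose in LM2. It was at 5.00, 4.89 and 4.10 CPM in 4T1 caMKL1 libraries against 18.6, 18.6 and 18.8 CPM in 4T1 control. Its level in LM2 was 559, 426 and 417 CPM with caMKL1, against 12.9, 15.6 and 15.7 CPM in control. The 4T1 level with caMKL1 was 0.250 times that of control, the log2 ratio in LM2 was 4.99 ± 0.11, and the interaction was -6.99 ± 0.18 (edgeR adjusted p = 3.94e-14). Of 15 CDK inhibitors and G1 cyclins tested, CDKN1A and CDKN2C fell in 4T1 and rose in LM2, the LM2 ratio of CDKN2C being 0.17, or -0.25 with library totals. Of 18 p53 target genes, which include CDKN1A, 11 had a lower and 5 a higher response in 4T1, against 31.9% and 42.2% of all tested genes. Of the 18, 2 fell in 4T1 and rose in LM2 and 3 did the reverse, near the 9.49% and 12.4% of all tested genes. The activity of p53 was not tested. MDM2, the ubiquitin ligase of p53, moved with CDKN1A, by -0.27 and 0.63 log2, while the death receptor TNFRSF10B and the kinase PLK2 rose in 4T1, by 1.33 and 1.52, and fell in LM2, by 0.36 and 0.60.

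Proliferation genes mostly fell in both lines, and further in LM2. All 24 mitotic genes tested had a higher interaction, against 42.2% of all tested genes, with medians of -0.38 in 4T1 and -2.47 in LM2. In LM2 all 24 fell, and in 4T1 15 fell and 2 rose. Over all tested genes 44.2% fell in LM2, and 35.5% fell and 37.5% rose in 4T1. The 2 mitotic genes that rose in 4T1 were TPX2, a spindle assembly factor, and NUSAP1, a microtubule binder, which are also the list's opposite genes. TPX2 was at 243, 243 and 250 CPM in 4T1 caMKL1 libraries against 172, 175 and 171 CPM in 4T1 control, and at 285, 303 and 299 CPM in LM2 caMKL1 libraries against 581, 602 and 575 CPM in LM2 control. NUSAP1 was at most 1.40 CPM in any LM2 library and is uncertain there. DNA replication genes showed a smaller gap, with medians of -0.80 in 4T1 and -1.89 in LM2 over 25 genes. None of these 25 had opposite responses, and 22 had a higher and 2 a lower interaction, against 42.2% and 31.9% of all tested genes. Over all tested genes 12.4% rose in 4T1 and fell in LM2, and 9.49% did the reverse. The count of 2 opposite mitotic genes lies near the first of these shares.

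Genes of pericellular proteolysis included opposite responses of both kinds. Of 16 genes tested from a list of proteases, inhibitors and related genes, 5 rose in 4T1 and fell in LM2 and 2 did the reverse. The counts were the same with library totals and without LM2 caMKL1 replicate 1. Over all tested genes the shares were 12.4% and 9.49%, so the count of 2 lies near the background. PLAU, the urokinase plasminogen activator, was at 593, 568 and 616 CPM in 4T1 caMKL1 libraries against 267, 263 and 277 CPM in 4T1 control. LM2 cells had 58.7, 43.3 and 47.0 CPM with caMKL1, against 97.9, 111 and 114 CPM in control. Its receptor PLAUR moved with it, at 192, 193 and 215 CPM in 4T1 caMKL1 libraries against 46.2, 47.8 and 48.5 CPM in 4T1 control, and at 11.4, 10.2 and 9.96 CPM in LM2 caMKL1 libraries against 24.6, 25.9 and 24.4 CPM in LM2 control. The interactions were 2.25 ± 0.12 for PLAU and 3.32 ± 0.09 for PLAUR (edgeR adjusted p = 1.62e-10 and 1.28e-13). ADAM8, a membrane metalloprotease, rose by 2.30 ± 0.11 log2 in 4T1 and fell by 2.64 ± 0.19 in LM2, where it reached 2.15, 1.23 and 0.967 CPM with caMKL1 against 8.42, 8.40 and 11.3 CPM in control. MMP14, a membrane collagenase, and HPSE, heparanase, rose by 0.82 and 0.53 in 4T1 and fell by 0.66 and 3.33 in LM2. HPSE, which acts on heparan sulfate, and the receptor PLAUR are list members that are neither proteases nor protease inhibitors.

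The 2 proteolysis genes of the reverse kind were ADAMTS9 and SERPINE2. ADAMTS9, a secreted metalloprotease that cleaves proteoglycans, had the widest split of all named genes. It was at 0.133, 0.257 and 0.284 CPM in 4T1 caMKL1 libraries against 15.1 CPM in each 4T1 control library. In LM2 the values were 58.8, 60.5 and 61.5 CPM with caMKL1, against 0.0780, 0.219 and 0.218 CPM in control. The interaction was -14.42 ± 0.22 (edgeR adjusted p = 1.60e-16). Its size is uncertain, as it rests on 17 counts over the 4T1 caMKL1 libraries and 14 over the LM2 control libraries. SERPINE2, an inhibitor of thrombin and urokinase, fell by 4.75 in 4T1 and rose by 0.86 in LM2.

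**Figure D3:**
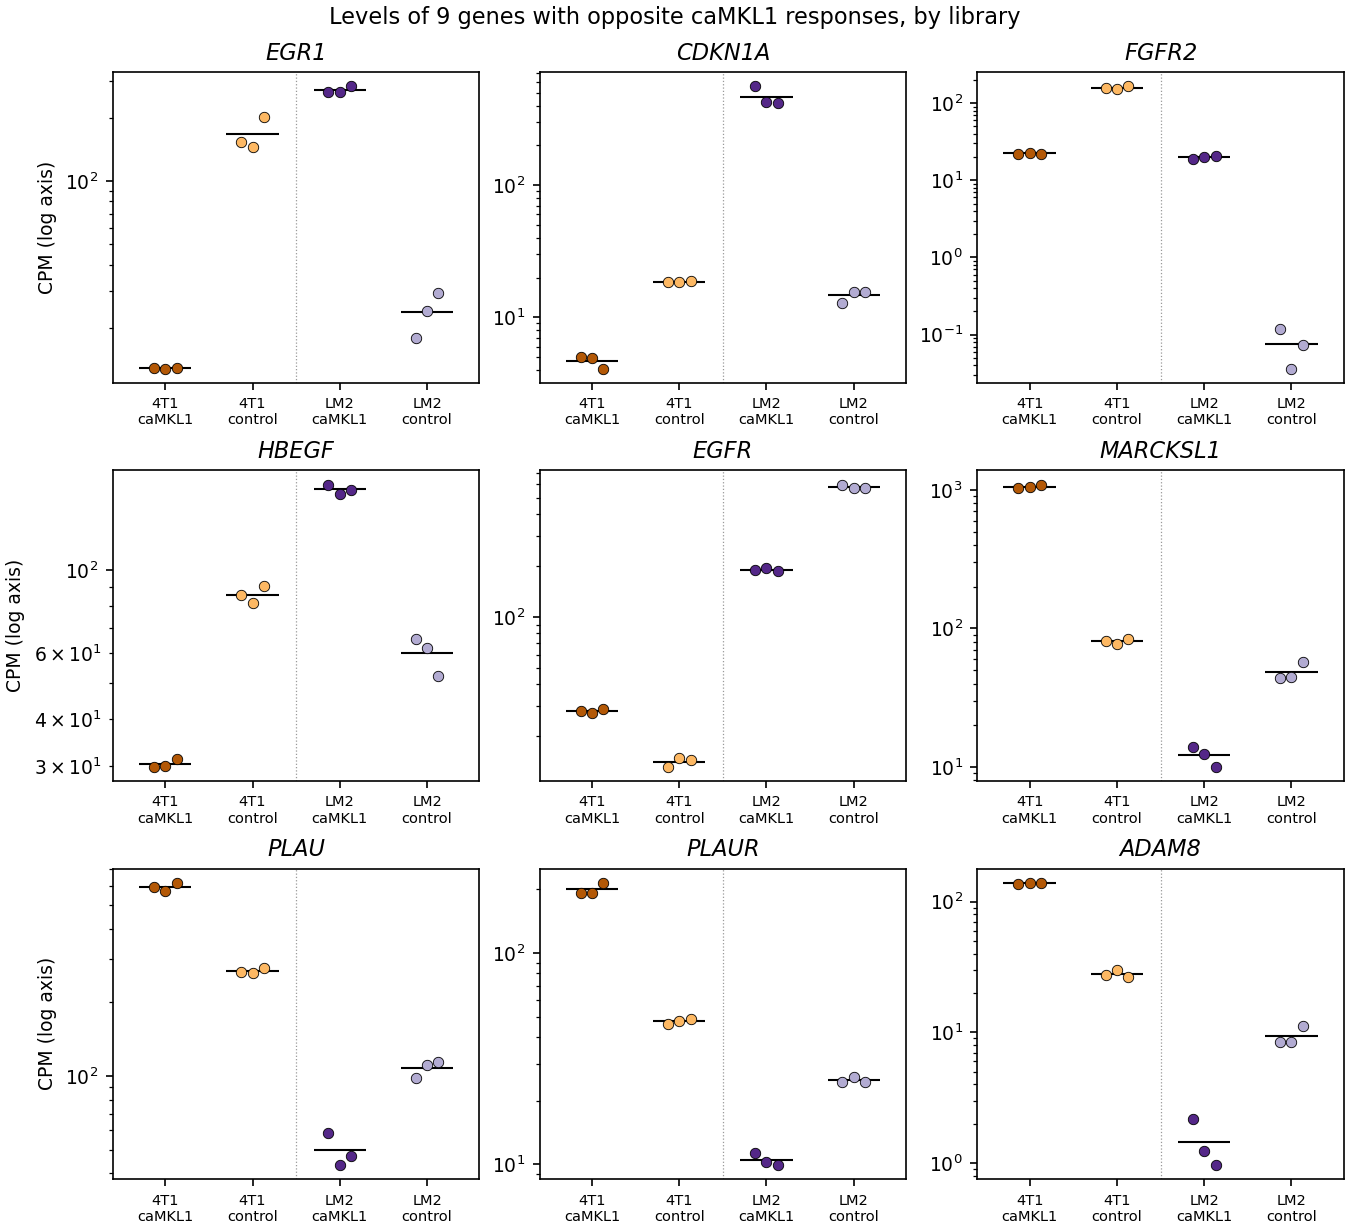
CPM on a log axis in each of 12 libraries for 9 genes, with groups ordered 4T1 caMKL1, 4T1 control, LM2 caMKL1 and LM2 control, points for libraries and a bar at the mean of 3. In EGR1, CDKN1A, FGFR2 and HBEGF the caMKL1 points lie below control in 4T1 and above it in LM2, and in EGFR, MARCKSL1, PLAU, PLAUR and ADAM8 above it in 4T1 and below it in LM2.

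Other genes that rose in 4T1 and fell in LM2 differed widely in what they encode. MARCKSL1, a substrate of protein kinase C that binds actin filaments at the membrane, was at 1029, 1043 and 1093 CPM in 4T1 caMKL1 libraries against 81.0, 77.6 and 83.9 CPM in 4T1 control. The LM2 libraries held 14.03, 12.4 and 10.1 CPM with caMKL1, against 44.2, 44.4 and 57.5 CPM in control. HHIP, a decoy receptor that binds hedgehog ligands, rose by 2.49 log2 in 4T1 and fell by 1.46 in LM2. IGDCC4, an immunoglobulin superfamily membrane protein, was at 10.6, 9.33 and 11.7 CPM in 4T1 caMKL1 libraries against 0.265, 0.0636 and 0.150 CPM in 4T1 control, and fell by 1.93 log2 in LM2. HAUS8, a subunit of the augmin complex that branches spindle microtubules, rose by 1.67 and fell by 2.03. PTGR1, a prostaglandin reductase, rose by 3.24 and fell by 1.40, and GNPDA1, an enzyme of hexosamine breakdown, rose by 1.62 and fell by 1.80. SP110, a nuclear body protein induced by interferon, rose by 2.50 and fell by 1.54. SLC18B1, a vesicular polyamine transporter, LRRCC1, a centrosome protein, MEST, an imprinted gene, and RCCD1 completed the 12 of this orientation, with 4T1 rises of 1.47 to 1.88 and LM2 falls of 1.58 to 2.19. LRRCC1 was at 14.1 CPM in LM2 caMKL1 replicate 1, against 22.6 and 22.7 CPM in the other 2, and control was at 56.1 CPM or more.

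Genes that fell in 4T1 and rose in LM2 included several at the membrane and the cell cortex. ABLIM1, an actin-binding LIM protein, was at 32.2, 33.4 and 36.5 CPM in 4T1 caMKL1 libraries against 206, 196 and 211 CPM in 4T1 control, and at 1240, 1275 and 1270 CPM in LM2 caMKL1 libraries against 215, 223 and 225 CPM in LM2 control. The log2 ratios of ABLIM1 were thus -2.59 in 4T1 and 2.51 in LM2. SLC4A4, a sodium bicarbonate cotransporter, fell by 4.76 log2 in 4T1 and rose by 3.52 in LM2. PTPN13, a tyrosine phosphatase, fell by 2.92 and rose by 3.26, and ST3GAL1, a sialyltransferase, fell by 1.79 and rose by 2.44. MAP3K14, the kinase NIK of the noncanonical NF-kB pathway, fell by 1.85 and rose by 1.93. RUNDC3B fell by 1.84 and rose by 2.31. VSIR, the immune checkpoint protein VISTA, fell by 1.90 and rose by 2.16, with 19.1 CPM in LM2 caMKL1 replicate 1 against 10.9 and 10.5 CPM in the other 2 and at most 3.86 CPM in LM2 control.

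Epithelial and matrix genes did not move as a block. Of 23 epithelial genes tested, 5 rose in 4T1 and fell in LM2 and 5 did the reverse, or 6 and 3 with library totals, and the LM2 median of 0.37 turned to -0.05 with library totals. Over all tested genes 12.4% rose in 4T1 and fell in LM2, and 9.49% did the reverse. EPCAM, an epithelial adhesion molecule, was at 71.1, 67.8 and 75.3 CPM in 4T1 caMKL1 libraries against 218, 207 and 221 CPM in 4T1 control. Its level in LM2 was 27.2, 35.8 and 36.9 CPM with caMKL1, against 13.1, 13.3 and 12.7 CPM in control. The junction protein OCLN moved the same way, by -1.29 log2 in 4T1 and 0.48 in LM2, as did the protease inhibitor SPINT1, by -0.48 and 2.79. The epithelial splicing regulators ESRP1 and ESRP2 rose by 1.65 and 0.67 in 4T1 and fell by 1.17 and 1.12 in LM2. Their levels in LM2 were low, with ESRP1 at 0.945, 1.55 and 1.06 CPM with caMKL1 and 2.30, 2.45 and 3.20 CPM in control. Among 26 collagen and matrix genes, 5 fell in 4T1 and rose in LM2, among them the laminin chains LAMA3, LAMB1 and LAMC1, and 2 did the reverse. COL8A1, a short-chain collagen that also fell in 4T1 and rose in LM2, was at 136, 132 and 131 CPM in 4T1 caMKL1 libraries against 322, 343 and 342 CPM in 4T1 control, and at 904, 961 and 1023 CPM in LM2 caMKL1 libraries against 238, 224 and 215 CPM in LM2 control. The LM2 ratio of LAMC1 was 0.28 log2 with TMM and -0.15 with library totals.

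Secreted signals and their receptors also included opposite genes. Of 21 TGF-beta ligands, receptors and response genes, 4 fell in 4T1 and rose in LM2 and 0 did the reverse, or 5 and 1 with library totals, against 9.49% and 12.4% of all tested genes. The 4 were, with log2 ratios in 4T1 and LM2, the coreceptor TGFBR3, by -1.91 and 1.01, the latency protein LTBP3, by -1.88 and 0.72, the inhibitory SMAD7, by -0.67 and 0.85, and the ligand TGFB3, by -0.36 and 0.99. Of 21 NF-kB, chemokine and cytokine genes, BIRC3, an inhibitor of apoptosis, TNFAIP3, the A20 brake on NF-kB, and ICAM1, a leukocyte adhesion molecule, fell in 4T1 by 0.51, 0.62 and 0.79 and rose in LM2 by 2.38, 2.13 and 0.47. With library totals ICAM1, at 0.04 in LM2, lost its opposite call, and 3 of 21 lies near the 9.49% of all tested genes. Among 31 guidance receptors and ligands, 5 fell in 4T1 and rose in LM2, among them NRP2, a semaphorin and VEGF coreceptor, by -0.38 and 3.24, and SEMA3E, by -1.30 and 2.14. PLXNA1, NTN4 and SEMA3B did the reverse. With library totals the counts were 4 and 3, and both shares lie near those of all tested genes.

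**Figure D4:**
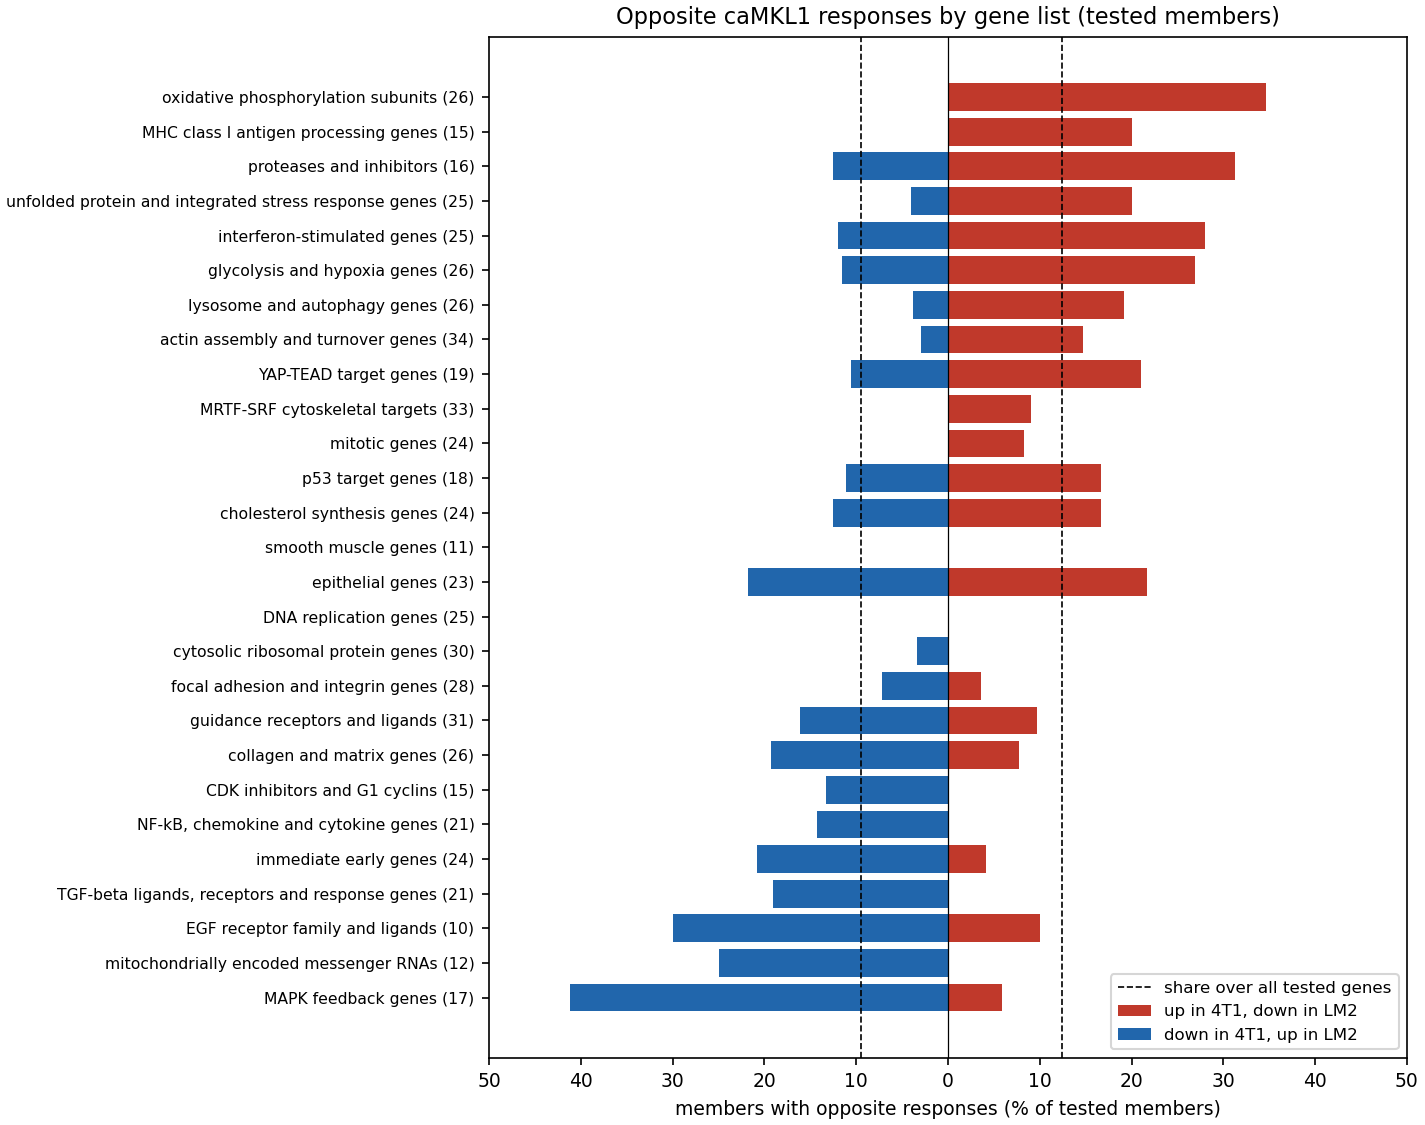
Share of the tested members of each list (number in brackets, lists of 10 or more) with opposite responses, up in 4T1 and down in LM2 to the right in red and down in 4T1 and up in LM2 to the left in blue. Dashed lines mark 12.4% and 9.49% of all tested genes, which the oxidative phosphorylation list (9 of 26) passes on the right and the MAPK feedback list (7 of 17) on the left.

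Nuclear and mitochondrial genes of the respiratory chain moved differently. Of 26 nuclear genes for oxidative phosphorylation subunits, 21 had a higher and 1 a lower response in 4T1, and 9 rose in 4T1 while falling in LM2, with 0 the other way. Over all tested genes these shares were 42.2%, 31.9%, 12.4% and 9.49%. Medians of the list were 0.44 in 4T1 and -0.06 in LM2. Among the 9 were the complex I subunits NDUFS1, NDUFS3, NDUFV2 and NDUFA9, SDHD of complex II, CYC1 and UQCRFS1 of complex III and COX5A of complex IV. NDUFS3 was at 51.9, 54.4 and 53.6 CPM in 4T1 caMKL1 libraries against 38.7, 42.0 and 38.2 CPM in 4T1 control, and at 13.1, 8.36 and 7.98 CPM in LM2 caMKL1 libraries against 20.2, 21.6 and 17.8 CPM in LM2 control. The 12 mitochondrially encoded messenger RNAs went the other way, with a lower interaction in all 12 and medians of -0.24 in 4T1 and 0.99 in LM2. All 12 rose in LM2, and in 4T1 3 fell and 0 rose. Over all tested genes 35.9% rose in LM2, and in 4T1 35.5% fell and 37.5% rose. The 3 falls in 4T1 are thus not above the background. These 3 genes had opposite responses, against 9.49% of all tested genes in that direction. With library totals the list's medians were -0.43 in 4T1 and 0.54 in LM2, and 2 genes had opposite responses. LM2 control libraries held 7.84%, 7.73% and 8.94% mitochondrial counts, a range that includes the 7.76% of LM2 caMKL1 replicate 1. Without LM2 caMKL1 replicate 1, whose mitochondrial share was lowest in its group, the LM2 median was 1.32 and the genes of opposite response numbered 6 in place of 3. MT-CO2 was at 7.70, 9.48 and 10.6 CPM in 4T1 caMKL1 libraries against 13.1, 13.6 and 14.7 CPM in 4T1 control, yet at 2672 CPM or more in every LM2 library. Nuclear copies of mitochondrial sequence can share reads with these genes, and their levels are uncertain.

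**Figure D5:**
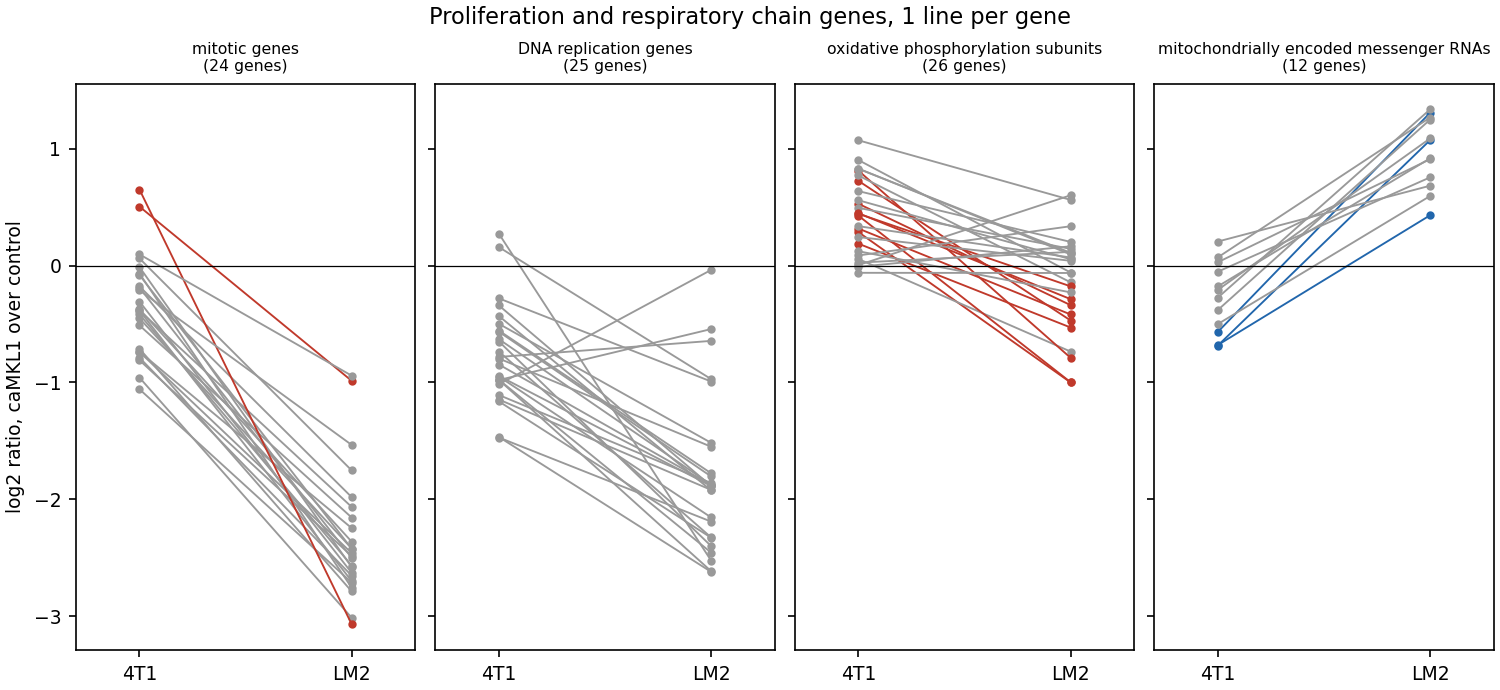
Log2 ratio of caMKL1 over control in 4T1 (left) and LM2 (right) for 4 lists, 1 line per gene, red for genes up in 4T1 and down in LM2 and blue for the reverse. Medians of mitotic and replication genes are -0.38 and -0.80 in 4T1 and -2.47 and -1.89 in LM2, and that of mitochondrially encoded genes is 0.99 in LM2.

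Glycolytic enzymes held opposite genes of either kind. Of 26 glycolysis and hypoxia genes, 7 rose in 4T1 and fell in LM2 and 3 did the reverse, with medians of 0.23 in 4T1 and -0.10 in LM2. Over all tested genes these were 12.4% and 9.49%, so the second count lies near the background. With library totals the counts were 5 and 2 and the medians 0.04 and -0.53. The phosphofructokinases PFKM and PFKP, which commit sugar to glycolysis, rose by 0.95 and 0.52 and fell by 1.57 and 1.46, and the pyruvate kinase PKM rose by 0.70 and fell by 0.64. The entry enzyme HK1 and the lactate dehydrogenase LDHA fell in 4T1 by 0.26 and 0.13 and rose in LM2 by 0.57 and 0.59. In cholesterol metabolism, 17 of 24 genes had a higher and 4 a lower response in 4T1, against 42.2% and 31.9% of all tested genes. Of these 24, 4 rose in 4T1 and fell in LM2 and 3 did the reverse, or 2 and 2 with library totals. These counts lie near the 12.4% and 9.49% of all tested genes. The synthase HMGCS1 and the prenyl enzyme FDPS rose by 0.42 and 0.36 in 4T1 and fell by 1.20 and 1.21 in LM2, and FDFT1, squalene synthase, and MSMO1, a sterol demethylation enzyme, rose by 0.23 and 0.26 and fell by 0.78 and 0.21. Among the 3 was the sterol carrier STARD4, which fell in 4T1 by 0.22 and rose in LM2 by 0.59.

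The cytoskeletal targets of MRTF and SRF, in contrast, rose in both lines with few exceptions. Of 33 tested, 31 rose in 4T1 and 30 in LM2, with medians of 1.73 and 2.09, and the interaction was higher in 10 and lower in 14. Over all tested genes 37.5% rose in 4T1 and 35.9% in LM2, and the interaction was higher in 42.2% and lower in 31.9%. The 3 targets that rose in 4T1 and fell in LM2 were FHL1, TAGLN2 and CAPZA1, and 0 did the reverse. Over all tested genes these shares were 12.4% and 9.49%, so the count of 3 lies near the background. FHL1, a LIM-domain protein of muscle with a human promoter window printed above, was at 275, 250 and 262 CPM in 4T1 caMKL1 libraries against 0.151, 0.0636 and 0.0748 CPM in 4T1 control. LM2 cells had 24.9, 24.3 and 22.9 CPM with caMKL1, against 39.3, 37.8 and 47.5 CPM in control. The interaction was 12.15 ± 0.19 (edgeR adjusted p = 1.93e-16), and its size is uncertain at such low 4T1 control levels. TAGLN2, a transgelin of non-muscle cells, was at 538, 527 and 524 CPM in 4T1 caMKL1 libraries against 288, 284 and 281 CPM in 4T1 control, and at 50.5, 42.5 and 35.1 CPM in LM2 caMKL1 libraries against 80.1, 78.4 and 82.1 CPM in LM2 control. CAPZA1, a subunit of the capping protein of actin filaments, changed little, by 0.38 and -0.37. Of 11 smooth muscle genes, 11 rose in 4T1 and 9 in LM2, and 0 were opposite, or 2 with library totals.

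Within the genes that moved the same way in both lines, 1275 (12.5%) rose and 1201 (11.7%) fell with an interaction that passed. PDLIM3, a PDZ and LIM protein of muscle Z-discs, had 0 counts in the 4T1 control libraries and was at least 1657-fold higher with caMKL1, taking 3 counts over the control group as the floor. In LM2 the values were 73.7, 77.5 and 76.7 CPM with caMKL1 against 12.8, 11.3 and 12.97 CPM in control. COL6A3, a chain of collagen VI, had 3 counts over the 4T1 control libraries, for a ratio of 519.9 (exact 95% counting interval 177.5 to 2524), and rose by 2.44 log2 in LM2. PLAC8 rose by 9.29 in 4T1 and 1.16 in LM2, and SEMA3C, a secreted semaphorin, by 6.47 and 0.29. KRT17, a basal keratin, was the reverse case, at 18.8, 22.8 and 23.9 CPM in 4T1 caMKL1 libraries against 2.31, 2.22 and 2.09 CPM in 4T1 control. The LM2 libraries held 1322, 1020 and 995 CPM with caMKL1, against 0.195, 0.146 and 0.0726 CPM in control. AKR1B10, an aldo-keto reductase, and CELF4, an RNA-binding protein, rose by 0.63 and 1.32 in 4T1 and by 6.39 and 6.65 in LM2. Their LM2 sizes are uncertain, with 20 and 19 counts over the control libraries.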

How the data were processed

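RNA of 12 libraries was compared, 3 per group, with polyA selection and 150 bp paired-end reads on an Illumina HiSeq, per the labels' protocols. The authors deposited raw counts of read pairs for each gene name. They ran featureCounts v2.0.1 over STAR alignments, adding up exons, with annotation of GRCm38 (Ensembl release 102) or GRCh38 (release 103), per the file headers. For STAR a version is not given in the sources, and no strand option is shown, so overlapping and antisense genes are uncertain.

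The 55367 mouse and 59453 human names were matched by symbol ignoring case, and 0 duplicated symbols were dropped. Genes had to pass edgeR's filterByExpr (minimum count 10) in both lines. A mean per group was fitted to the 12 libraries with edgeR 4.0.16 (R 4.3.3), TMM scaling within each line, the quasi-likelihood F test and a prior count of 0.125. p-values were adjusted by Benjamini-Hochberg over all 10236 genes at 0.05, and the SE is the log2 ratio divided by the square root of F. That SE can be too small where a group holds few counts. The common biological coefficient of variation was 0.0639 in this fit, 0.0358 in 4T1 alone and 0.0940 in LM2 alone. Alternatives were DESeq2 1.42.0, limma 3.58.1 voom, other scalings and filters, 18 libraries, separate lines, a replicate block and leaving out each library. Intervals and floors cover counting error only. Whether replicates came from separate cultures is not given, so p-values measure the spread between these libraries, which may be technical.

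Named were MRTFA, MRTFB, SRF, CNN1, TAGLN and EGR1. Added were the 12 genes of each opposite orientation with the largest smaller response, and the 4 same-direction genes at each end of the interaction, at 5 CPM or more in both lines with no overlap between groups. Opposite members of each of 31 gene lists, and up to 4 others per list by interaction p, were open to naming. TCF7, CPD and the other genes of the promoter search, Cd68, B4GALT2, TSC22D1 and the genes that changed class were named after their values were seen. The comparison, its marker genes and the lists were chosen with earlier results of these data known. Results for a few genes that these rules would name are not reported here.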

Additional observations from a re-analysis of the deposited data

Results flagged for a closer look

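The caMKL1 response differed between 4T1 and LM2 by the interaction test itself in 7592 genes. The genes named below passed it too, and each value is the interaction log2 ratio, 4T1 minus LM2. Among the markers it was 1.87 for MRTFB, 9.73 for CNN1, -3.60 for TAGLN and -7.19 for EGR1.

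Genes that rose in 4T1 and fell in LM2 had interactions of 4.94 (ADAM8), 5.70 (MARCKSL1), 7.98 (IGDCC4), 3.70 (HAUS8), 3.42 (GNPDA1) and 3.46 (SLC18B1). Those of MEST, SP110, LRRCC1, RCCD1, HHIP and PTGR1 were 3.17, 4.04, 3.07, 3.67, 3.95 and 4.64.

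Genes that fell in 4T1 and rose in LM2 had interactions of -14.42 (ADAMTS9), -8.29 (SLC4A4), -6.18 (PTPN13), -10.79 (FGFR2), -5.10 (ABLIM1) and -6.99 (CDKN1A). Those of VSIR, MAP3K14, RUNDC3B and ST3GAL1 were -4.06, -3.78, -4.16 and -4.23.

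Of the genes that rose in both lines, PDLIM3, PLAC8, COL6A3 and SEMA3C had interactions of 10.94, 8.13, 6.41 and 6.18, and KRT17, EGR2, AKR1B10 and CELF4 of -9.64, -5.86, -5.76 and -5.32. For PDLIM3 and COL6A3, with 0 and 3 counts in the 4T1 control group, the value varies with the prior count and bounds nothing. Size is uncertain too for ADAMTS9, FGFR2 and KRT17, with 14, 6 and 11 counts in the LM2 control group. The same holds for EGR2, AKR1B10 and CELF4, with 15, 20 and 19 counts there. For IGDCC4, CNN1 and PLAC8 the 4T1 control group held 13, 14 and 6 counts.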

How the results depend on the processing

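In the alternatives that give an interaction, those of the markers and of the genes with flagged values kept their sign, and those that passed kept their call. CNN1 has no value with a filter at 5 CPM. The interaction was called for 7636 genes by DESeq2 and 7482 by limma voom, against 7592. LM2 rises numbered 2254 with library totals, against 3670. Opposite genes of at least 2-fold numbered 187 and 187 with no filter on low counts, and 39 (up in 4T1) and 44 (down in 4T1) with a filter at 5 CPM in each line, which tests fewer genes, against 106 and 120. The small difference of MRTFA passed in 7 of 21 alternatives and that of SRF in 5 of 21. With DESeq2 they were -0.38 (adjusted p = 0.0379) and -0.26 (0.0349), and with library totals -0.11 (edgeR adjusted p = 0.478) and -0.01 (0.962). With a replicate block that of MRTFA was -0.35 (edgeR adjusted p = 0.0292), and without LM2 caMKL1 replicate 1 -0.52 (8.68e-05).

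Leaving out each library in turn gave 7311 to 8052 interaction calls, 4136 to 4585 higher and 3115 to 3467 lower. The 4T1 rises ran from 3589 to 4132 and falls from 3342 to 3971, and the LM2 rises from 3527 to 3807 and falls from 4249 to 4645. Opposite genes ran from 1144 to 1417 (up in 4T1) and 889 to 1136 (down in 4T1), and at 2-fold from 95 to 112 and 117 to 129.

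Same-numbered caMKL1 and control libraries deviated together by a correlation of -0.059, 0.046 and 0.177 in 4T1 and -0.020, -0.044 and 0.134 in LM2. Deviations are centred on means of 3 libraries, so these values cannot tell whether the numbers pair the samples. A replicate block gave 7569 interaction calls. Fitting each line on its own gives no interaction, and opposite genes rest there on the responses of the lines alone. Depth limits genes under about 1 CPM in a line, where folds rest on few counts.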

Other observations

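Antigen presentation and interferon genes were split between the lines. Of 25 interferon-stimulated genes tested, 7 rose in 4T1 and fell in LM2 and 3 did the reverse, against 12.4% and 9.49% of all tested genes. MX1 and MX2, antiviral GTPases, rose by 0.94 and 0.90 log2 in 4T1 and fell by 0.95 and 1.41 in LM2, and the signalling subunits STAT2 and IRF9 rose by 0.81 and 0.36 and fell by 0.43 and 1.18. The RNA sensor DDX58 and its relative DHX58 fell in 4T1, by 0.21 and 0.94, and rose in LM2, by 1.74 and 1.14. The median of the list was 0.52 in 4T1 and 0.33 in LM2, or -0.10 in LM2 with library totals. Of 15 genes of MHC class I antigen processing, 3 rose in 4T1 and fell in LM2, the immunoproteasome subunit PSMB8 (1.05 and -0.96), the peptide loading factor TAPBP (0.36 and -0.72) and the chaperone CALR (0.49 and -0.75). TAP1, the peptide transporter, rose in both lines, by 1.45 and 4.85.

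Lysosomal genes had a higher response in 4T1 in 17 of 26 cases and a lower one in 5, against 42.2% and 31.9% of all tested genes. Of the 26, 5 rose in 4T1 and fell in LM2 and 1 did the reverse, or 8 and 0 with library totals. Over all tested genes 12.4% rose in 4T1 and fell in LM2 and 9.49% did the reverse, also the background for the next lists. CTSD, a lysosomal protease, rose by 1.15 in 4T1 and fell by 0.60 in LM2, and WIPI1, an autophagy protein, rose by 0.42 and fell by 0.38. NPC2, a lysosomal cholesterol carrier, did the reverse, by -0.50 and 0.31, with -0.11 in LM2 with library totals. The list's LM2 median of 0.28 turned to -0.14 with library totals. Among 25 genes of the unfolded protein and integrated stress responses, 5 rose in 4T1 and fell in LM2, among them MANF (0.90 and -1.35) and EDEM1 (1.85 and -0.43), while PSAT1, of serine synthesis, fell by 0.70 and rose by 1.55. Among 19 YAP-TEAD target genes, AJUBA, DLC1, PTPN14 and FJX1 rose in 4T1 and fell in LM2, and DDAH1 and ASAP1 did the reverse, or 5 and 1 genes with library totals. CCN2, a matricellular protein, rose in both lines, by 1.99 in 4T1 and 5.08 in LM2.

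Of 28 focal adhesion and integrin genes, 9 had a higher and 17 a lower response in 4T1, with medians of 0.68 in 4T1 and 1.50 in LM2. Over all tested genes 42.2% were higher and 31.9% lower. The integrin subunit ITGB8 and the kindlin FERMT1 fell in 4T1, by 1.36 and 0.43, and rose in LM2, by 3.14 and 1.77, and the tensin TNS3 rose by 0.28 and fell by 1.16. Of 30 cytosolic ribosomal protein genes, 23 fell in 4T1 and 27 in LM2, and the interaction did not pass in 18. Over all tested genes 35.5% fell in 4T1 and 44.2% in LM2, and the interaction passed in 74.2%.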
